A study of Drosophila melanogaster with 54 samples.

Results

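The genes described here are the nuclear genes of oxidative phosphorylation in Drosophila melanogaster, taken as every gene whose current FlyBase symbol begins with ND-, Sdh, UQCR-, COX or ATPsyn. The rule gave 88 of 17558 genes, and all 88 were matched in each of the 4 deposited count tables. Of these, 40 belong to complex I, 8 to complex II, 9 to complex III, 16 to complex IV and 15 to complex V by their symbols. The X carries 13 of them and the autosomes 75. The symbols of 24 members name them as paralogs of another member (SdhBL beside SdhB, for example). Some subunits carry other names, such as levy and blw, and are outside the rule.

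Complexes I to IV pass electrons from NADH and succinate to oxygen and, except for complex II, pump protons across the inner mitochondrial membrane. Complex V, the ATP synthase, lets the protons back through a rotor and makes ATP. Most subunits are encoded in the nucleus and assemble with a small set encoded in mitochondrial DNA, so that subunits of one complex come from the X, the autosomes and the mitochondrial genome. In male flies the male-specific lethal complex, whose acetyltransferase is mof, acts along the single X and raises transcription of X genes toward the level given by the pair of X chromosomes in females. The question asked of the members was whether those on the X and those on autosomes differed by stage, by sex and by depletion of mof.

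The data are counts of polyA RNA in 54 libraries of 14 groups. The mof embryos were progeny of mothers carrying the maternal driver mat-a-tubGal4 with a mofRNAi stock, and the control embryos came from mothers with the same driver and a controlRNAi stock, with mothers mated to siblings in both. Blastoderm embryos of nuclear cycle 14 (St5) gave 4 mof males, 4 control males, 2 mof females and 2 control females. Gastrulating embryos (St7) gave 6 mof males, 7 control males, 4 mof females and 6 control females. Libraries of these stages come from 1 embryo each, sexed by the submitters from RNA of msl-2, Sxl, tra and tra2 in the same library. Embryos of 14 to 16 h (St15) carried Sxl-GFP, were sorted on it and were pooled 25 to a library, giving 3 mof males, 3 control males, 4 mof females and 3 control females. S2 cells, an embryonic cell line (Dmel-2), received 10 ug of dsRNA against mof or against GFP per 1e6 cells for 3 days, with 3 libraries each. No label says whether the S2 libraries were separate cultures, so p-values there measure the spread between libraries only. Differences between the mof and control stocks other than mof itself cannot be told apart from the RNAi.

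mof RNA stood at 1.46 to 4.51 CPM (counts divided by the library total, times 1e6) in mof males of St5, where control males had 268 to 414. Every embryo library of a mof group lay below every control library of its stage and sex. In mof males of St15 it was 2.17 to 3.00, with 18.5 to 38.7 in control males. St5 mof females had 0.912 to 1.25 CPM and their controls 531 to 677, and St15 mof females 2.57 to 3.23 CPM and their controls 10.97 to 11.2. St7 mof males had 2.39 to 25.1 CPM and their controls 52.8 to 202, while St7 mof females had 7.02 to 18.01 CPM and St7 control females 27.7 to 48.4. The S2 groups overlapped, with 50.1 to 72.7 CPM under mof dsRNA and 65.9 to 71.8 under GFP dsRNA. Depth, in units of 1e6 counts, ran over 28.3 to 41.5 for St5, 5.50 to 10.02 for St7, 19.02 to 38.1 for St15 and 20.5 to 38.8 for S2 cells. Summed muscle marker RNA was 24714 to 32773 CPM in St15 mof males and at most 1391 CPM in any St5, St7 or S2 library, and fat body and hemocyte markers summed to 8179 to 11140.5 CPM in GFP-treated S2 cells. All genes annotated on the Y summed to 3 counts in St5 mof male 1 and 0 in St5 mof male 2, though 198 to 383 were found in each of the 6 remaining St5 male libraries. Sxl, whose RNA the submitters used for sexing, stood at 469 and 400.05 CPM in St5 mof males 1 and 2 and at 31.5 to 84.1 CPM in those 6, with 8.77 to 34.5 CPM in the 4 St5 libraries labelled female. The 2 mof males thus stand apart from all other St5 males in both measures. Their Y counts go against the label male, which was kept, so their sex is uncertain. Sxl does not settle it, since libraries labelled female had low values. St5 mof female 2 held 52 Y counts, St5 control female 1 held 40 and St15 mof female 3 held 40, so results that rest on these libraries are given below with and without them or with the counts beside them. The genotype field of the St5 control females names the mofRNAi stock and that of the St15 mof embryos says control, while titles and mof RNA place them as named here.

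Log2 fold changes are from edgeR, mof over control unless another contrast is named, and are given ± standard error. Since edgeR reports no such error, it was taken as |log2 fold change| divided by the root of F. A gene passed when its p from edgeR's quasi-likelihood test, adjusted by Benjamini-Hochberg over all genes tested in that table, was under 0.05. Rose and fell are used of such genes only. The St5 fit tested 69 members, St7 67, St15 68 and S2 cells 69, of which 11, 11, 12 and 11 lie on the X, and the rest had too few counts. Among members not named as paralogs, ND-B8 and ND-MNLL were tested in no table, and UQCR-14 was not tested at St5, where all 12 libraries list it at 0.

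The X members span the chromosome (positions on BDGP6.54, whose coordinates are those of dm6). Of complex I they include ND-75 (8248651 to 8251687) and ND-24 (17632089 to 17633509), core subunits of the arm that takes electrons from NADH, and ND-20 (15985473 to 15986808), the core subunit next to the quinone site. Accessory subunits of complex I on the X are ND-18 (19492421 to 19493337), ND-ASHI (6677262 to 6679118), ND-B14.5A (2172526 to 2173432), ND-B16.6 (6349016 to 6350401), ND-B18 (15063733 to 15064926) and ND-MNLL (7893053 to 7893798). The other 4 are SdhBL (18894446 to 18896581), a paralog of the iron-sulfur subunit of complex II, UQCR-14 (16286288 to 16286988), a small subunit of complex III, COX6B (19740537 to 19744335), a subunit of complex IV on its intermembrane side, and ATPsyndelta (10212970 to 10217393), part of the rotor stalk of the ATP synthase. ND-75, ND-24, ND-20 and SdhBL overlap no other protein-coding gene. The other 9 do, among them UQCR-14 with CG32576 on the opposite strand, ATPsyndelta with CG2962 and COX6B with CG18809 (no source says if strand entered the counting). Median counts of UQCR-14 were 0.917 times those of CG32576 at St7 and 11.8 times at St15, and at St5 the 12 libraries list UQCR-14 at 0 and CG32576 at 348 to 893 counts. Levels of UQCR-14 are therefore not set against each other across tables.

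The members took 1.11 to 1.40% of all counts in St5 control males, 1.30 to 1.74% in St7 control males, 1.23 to 1.30% in St15 control males and 0.499 to 0.545% in GFP-treated S2 cells. Stage and table cannot be told apart, so these levels are a description. On a scale of counts per kilobase of exon rescaled to a sum of 1e6 per library (TPM), the 64 members not named as paralogs had a median mean level in control libraries of 204 for St5, 277 for St7, 266 for St15 and 54.7 for S2 cells. The 24 named as paralogs were far lower, with 17, 17, 19 and 19 of them under 1 TPM in those tables. Within the larger set the 12 X members had medians of 126, 190.3, 188 and 33.2 TPM, and the 52 autosomal members 275, 311, 273 and 63.6 TPM. The X medians are lowered by ND-MNLL, listed at 0 in every library, and at St5 also by UQCR-14, listed at 0 there. Both genes overlap another gene.

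Complexes were assigned by symbol alone. Among members with ND- symbols, placed in complex I on that ground, ND-MLRQ had the highest TPM level in controls of all 4 tables. It had 818 ± 181 (SD, n = 6) for St5, 958 ± 82.9 (n = 13) for St7, 936 ± 30.4 (n = 6) for St15 and 158 ± 9.64 (n = 3) for S2 cells. COX7B likewise led complex IV in all 4, from 186 ± 12 TPM in S2 cells to 1132 ± 97.4 at St7. At St7 its nearest neighbours COX5B (1104 ± 94.7) and COX8 (1052 ± 114) stood within 1 SD of it. The leader of complex V differed between tables and, at St5, between the sexes. ATPsynO, the stator subunit that joins the head to the stalk, had 1039.8 to 1276 TPM in St5 control males and 804 and 884 in St5 control females, while ATPsynC, the subunit of the membrane ring, had 613 to 791 TPM in St5 control males and 1361 and 1413 in St5 control females. ATPsynO thus led in the males, with ATPsynCF6 within 1 SD of it, and ATPsynC in the females. At St7 ATPsynO (1451 ± 185) stood within 1 SD of ATPsynbeta (1326 ± 201), and in S2 cells ATPsyngamma, the central stalk (333 ± 49.9), within 1 SD of ATPsynC (317 ± 17.2), whereas at St15 ATPsynC (2155 ± 53.1) stood above ATPsynbeta (1672 ± 32.0) by more than 1 SD.

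In complex II SdhB led at St5 (322 ± 97.4 TPM) and SdhC at St7 (236 ± 26.2). These 2 subunits stood within 1 SD of each other at St15 (SdhC 270.2 ± 17.0, SdhB 265 ± 11.1) and in S2 cells (SdhC 54.4 ± 10.3, SdhB 54.9 ± 6.78). The leading TPM level of complex II was below that of the other complexes at St7, St15 and in S2 cells. In complex III UQCR-Q led in St5 control males, with 290.4 to 386 TPM there and 256 and 268 in St5 control females. The core subunit UQCR-C1 led in the females, with 152 to 239 TPM in St5 control males and 302 and 322 in St5 control females. UQCR-14 led at St7 (818 ± 92.7). It stood within 1 SD of UQCR-C1 at St15 (UQCR-14 635 ± 50.7, UQCR-C1 635 ± 23.3) and in S2 cells (UQCR-14 129 ± 11.51, UQCR-C1 118 ± 15.9). Its St7 counts were 0.874 to 1.02 times those of the overlapping CG32576, so its rank there is uncertain. At St5 it was listed at 0 and could not be ranked.

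**Figure D1:**
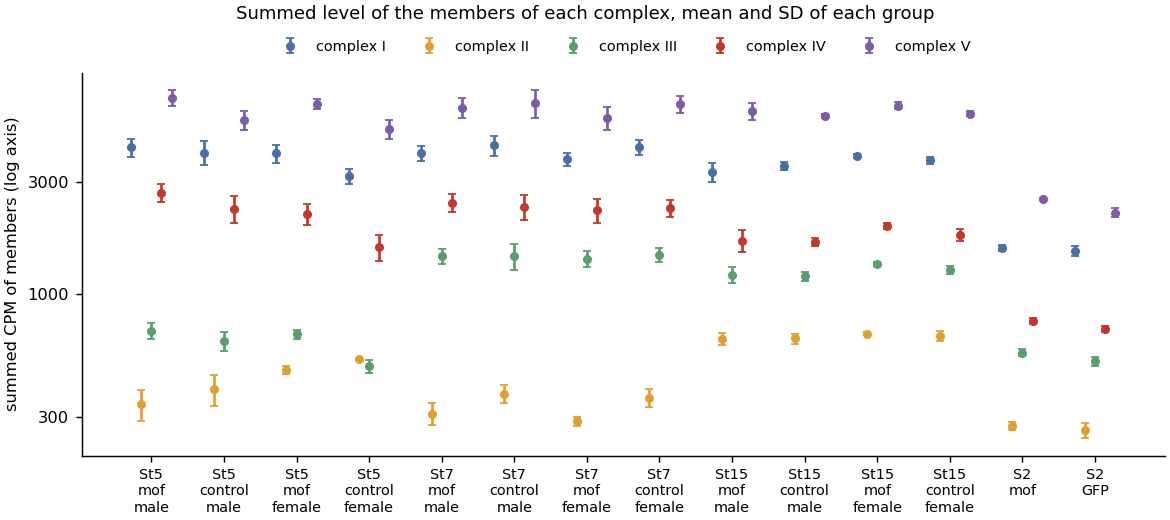
Summed CPM of the members of each complex (log axis) by group, mean with SD as bars, mof left of its control and males before females. Complex V was highest and complex II lowest in every group but St5 control females, where complex II (532 and 527 CPM) stood above complex III (472 and 517 CPM). Every St5 library lists UQCR-14 of complex III at 0, so the St5 sums of complex III lack it and that exception is uncertain.

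What did depletion of mof do to the members in late male embryos? At St15 most X members had less RNA in mof males than in control males, and few autosomal members passed. Of 12 X members tested, 10 fell and 0 rose, and of 56 autosomal members 2 fell and 1 rose, where 34.3% of all genes tested passed. Of all X genes 64.8% passed and 63.7% fell, and of all autosomal genes 28.3% passed, with 18.8% rising and 9.55% falling. The median log2 fold change was -0.60 over X members and 0.08 over autosomal members, beside -0.52 over all X genes and 0.07 over all autosomal genes. X members thus stood 0.68 below autosomal members on the log2 scale, and all X genes 0.59 below all autosomal genes.

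Complex I had 7 of these genes, and ND-24 fell most among the X members. ND-24 had 49.0, 50.5 and 60.2 CPM in mof males, against 97.6, 80.9 and 91.5 in control males (-0.76 ± 0.09, adjusted p = 2.48e-05). ND-20 had 86.6, 77.0 and 90.3 CPM in mof males and 141, 136 and 139.9 in control males (-0.71 ± 0.07, adjusted p = 7.01e-06). ND-75 had 199, 189.9 and 216 CPM in mof males and 328, 287 and 306 in control males (-0.61 ± 0.07, adjusted p = 2.12e-05). In each of these 3 core subunits every mof male library lay below every control male library. The accessory subunits ND-18 (-0.69 ± 0.09), ND-ASHI (-0.65 ± 0.09), ND-B14.5A (-0.58 ± 0.08) and ND-B16.6 (-0.49 ± 0.11) fell too, each with an adjusted p of at most 0.00379 in edgeR's test. ND-B16.6, the fly form of the mammalian cell death regulator GRIM-19, had 66.6, 66.5 and 90.1 CPM in mof males, against 107, 101 and 106 in control males.

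Complexes III, IV and V each had 1 X member that fell. UQCR-14 had 88.2, 92.5 and 108 CPM in mof males and 144, 142 and 149 in control males (-0.59 ± 0.07, adjusted p = 3.56e-05). COX6B had 162, 165 and 187 CPM in mof males and 275, 257 and 279 in control males (-0.65 ± 0.07, adjusted p = 1.54e-05). ATPsyndelta had 124, 119.6 and 144 CPM in mof males and 174, 169.6 and 178 in control males (-0.42 ± 0.07, adjusted p = 0.000308), the smallest change of the 10. In all 3 genes the highest mof male library was below the lowest control male. CG2962, which overlaps ATPsyndelta, held 31548 to 164239 counts in St15 libraries and at most 20 in any other library, so the St15 value of ATPsyndelta is uncertain.

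ND-B18 and SdhBL were the X members that did not pass. ND-B18 had 40.5, 35.8 and 49.9 CPM in mof males and 51.4, 47.1 and 49.3 in control males (-0.23 ± 0.11, adjusted p = 0.136), with 1 mof library inside the control range. SdhBL stayed under 1 CPM, at 0.773, 0.644 and 0.378 in mof males and 0.896, 0.704 and 0.765 in control males (-0.40 ± 0.40, adjusted p = 0.480). The 10 calls on X members held under each of the 11 alternatives run, which included scaling on autosomal genes, DESeq2, the replicate block and leaving out each library.

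**Figure D2:**
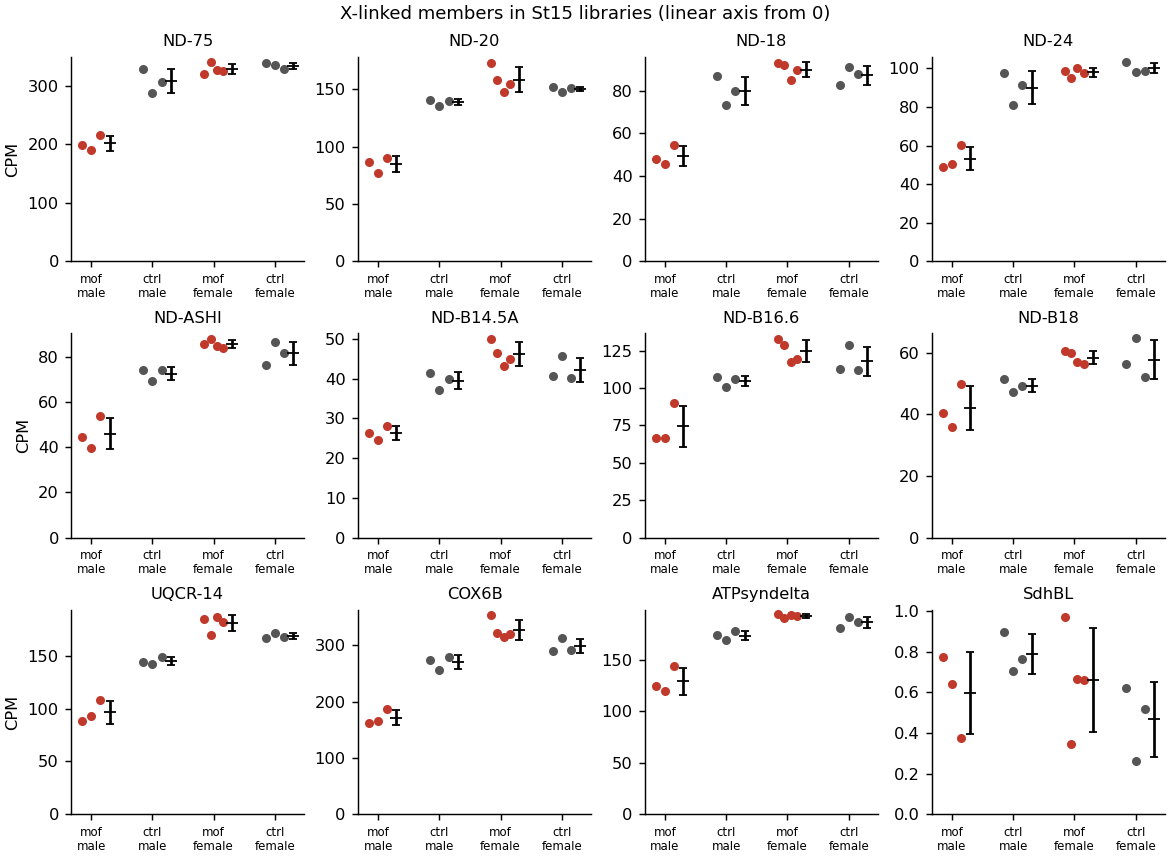
CPM of the 12 X members tested at St15, 1 point per library (linear axis from 0) with mean and SD beside the points, in mof males, control males, mof females and control females (ctrl). For 10 of the 12 the mof male libraries lie below all libraries of the other 3 groups, while in ND-B18 and SdhBL they overlap control males.

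Autosomal members that passed in St15 males were few. Sdhaf3, which encodes an assembly factor of complex II and not a subunit, had 1.55, 2.30 and 1.98 CPM in mof males and 6.03, 5.78 and 5.95 in control males (-1.60 ± 0.17, adjusted p = 9.62e-06). Its counts at St15 were 32 to 148 a library, so the size of the change is uncertain, though mof and control libraries did not overlap in either sex. UQCR-11L, a paralog of the hinge subunit of complex III, had 0.290, 0.322 and 0.378 CPM in mof males and 0.693, 0.855 and 1.27 in control males (-1.49 ± 0.45, adjusted p = 0.0201), and its call was lost without mof male 1 or 2 or control male 4. ND-ACP, the mitochondrial acyl carrier protein that also sits in complex I, rose to 162, 158 and 177 CPM in mof males, against 143, 134 and 150.5 in control males (0.22 ± 0.07, adjusted p = 0.0198), a call lost with scaling on autosomal genes. Muscle markers summed to 24714 to 32773 CPM in mof males and 28394 to 29771 in control males, and none of 8 tested passed in edgeR's test, at an unadjusted p under 0.05 or with DESeq2. Fat body and hemocyte markers summed to 5473 to 7442 CPM in mof males and 5118 to 5219.6 in control males, where 0 of 6 passed and 1 did with DESeq2 or at an unadjusted p under 0.05. Their part in the members' changes was not tested.

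In late females no X member passed. Of 12 X members 0 rose and 0 fell, and of 56 autosomal members 5 rose and 1 fell, where 26.0% of all genes, 24.4% of X genes and 26.3% of autosomal genes passed. All 12 X members had positive fold changes, 3 of them at an unadjusted p under 0.05, and with DESeq2 1 of the 12 passed, among 15 of 68 members in all. The medians were 0.13 over X members and 0.14 over autosomal members, beside 0.01 over all X genes and 0.02 over all autosomal genes. COX6B, the X member nearest the threshold, had 353, 321, 315 and 319.9 CPM in mof females and 290.4, 313 and 292 in control females (0.19 ± 0.07, adjusted p = 0.0501).

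The autosomal genes that rose in St15 mof females belong to 4 complexes. COX4L, a paralog in complex IV, had 2.15, 1.88, 2.18 and 2.51 CPM in mof females and 0.763, 0.946 and 0.620 in control females (1.54 ± 0.31, adjusted p = 0.00336). UQCR-6.4 (0.27 ± 0.09), ATPsynD (0.23 ± 0.08), COX5B (0.20 ± 0.07) and ND-ACP (0.19 ± 0.06) rose less, with adjusted p at most 0.0439 in edgeR's test, and each of these 4 calls was lost without at least 5 of the 7 female libraries in turn. Sdhaf3 fell to 1.52, 1.42, 1.99 and 1.66 CPM in mof females, against 5.25, 5.36 and 5.33 in control females (-1.63 ± 0.16, adjusted p = 1.20e-05). Muscle markers summed to 33312 to 35569 CPM in mof females and 28375 to 31464 in control females, with 5 of 8 tested rising and none of the 8 at 0, and fat body and hemocyte markers to 6987 to 7679 CPM in mof females and 5134 to 6231 in control females, with 3 of 6 rising. Of 3 glial markers moody and repo rose, and of 2 midgut markers GATAe fell. Their part in the higher members was not tested. In these pools, more cells of a type and more RNA per cell cannot be told apart. The count of 6 members was 2 without control female 2, mof female 2 or mof female 4, 3 without control female 4 or mof female 1, and 5 without mof female 3, whose Y-linked counts were 40.

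The difference between the sexes was itself tested at St15. For 10 of 68 members the mof effect was lower in males than in females, where 16.7% of all genes, 50.1% of X genes and 10.2% of autosomal genes passed in either direction. All 10 are the X members that fell in males, and 0 of 56 autosomal members passed in edgeR's test or with DESeq2, with 2 at an unadjusted p under 0.05. COX6B (-0.85 ± 0.10) and ND-20 (-0.85 ± 0.10) differed most and ATPsyndelta (-0.53 ± 0.09) least, with adjusted p at most 0.0125, in ND-B16.6. X members stood 0.70 below autosomal members in this contrast, and all X genes 0.55 below all autosomal genes.

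The summed level of the X members against the autosomal members set mof males apart from the other St15 groups. The log2 ratio was -3.63 to -3.59 in mof males, -2.96 to -2.92 in control males, -2.90 to -2.88 in mof females and -2.86 to -2.83 in control females. X members made up 7.49 to 7.65% of member counts in mof males and 11.4 to 11.7% in control males. Among controls, males were thus below females without overlap. Gene by gene, 0 of 68 members passed between control males and control females at St15 in edgeR's test (1.30% of all genes passed), 1 had an unadjusted p under 0.05 and 1 passed with DESeq2. The median fold change, male over female, was -0.14 over X members and -0.08 over autosomal members, with UQCR-14 lowest among those on the X at -0.23 ± 0.07 (adjusted p = 0.2003).

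**Figure D3:**
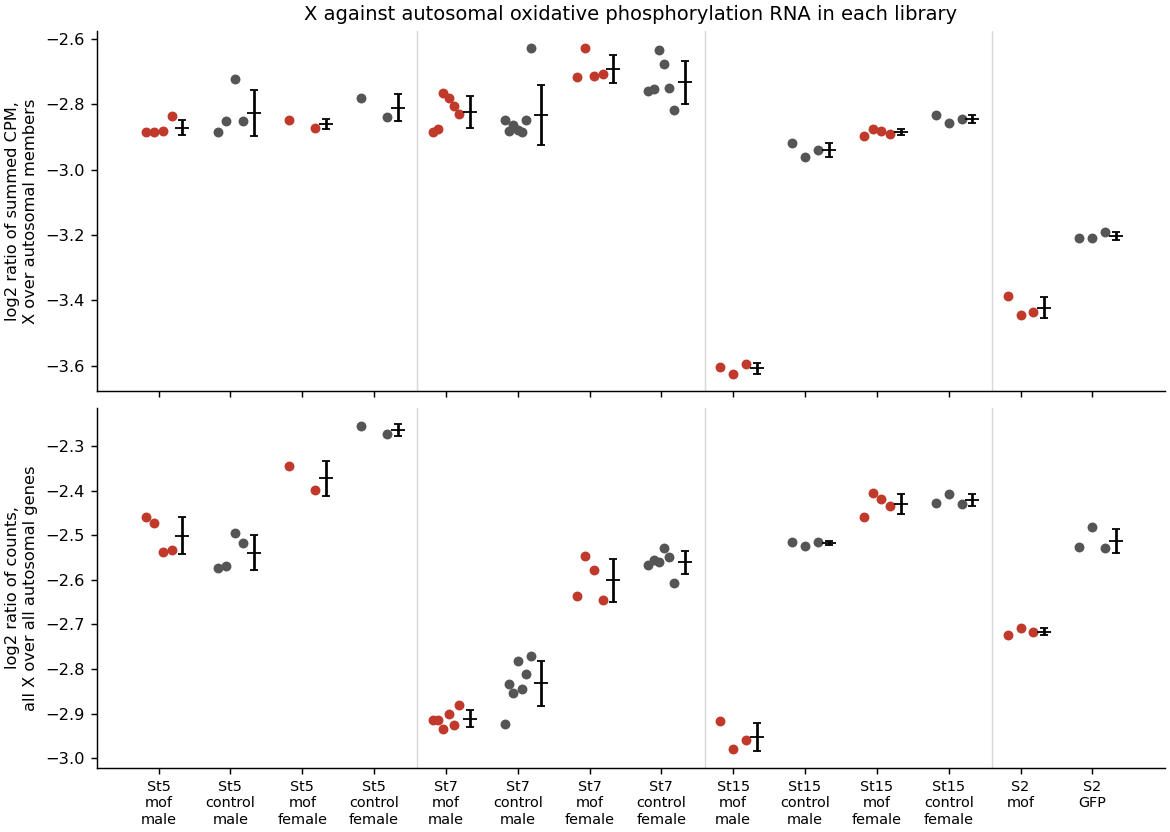
Log2 ratio of X to autosomal RNA in each library by group, for summed CPM of the members (top) and for counts of all genes (bottom), 1 point per library with mean and SD at the right of each group. St15 mof males (-3.63 to -3.59 for members) lie below all other St15 libraries, and mof-treated S2 cells (-3.45 to -3.39) below GFP-treated cells (-3.21 to -3.19).

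In S2 cells most of the X members that passed fell and the autosomal members that passed rose, by small amounts. After mof dsRNA 6 of 11 X members fell and 1 rose, and 14 of 58 autosomal members rose and 0 fell, where 23.4% of all genes passed (39.4% of X genes, with 37.0% falling, and 20.1% of autosomal genes, with 11.7% rising and 8.45% falling). Medians were -0.19 over X members and 0.10 over autosomal members, beside -0.19 over all X genes and 0.02 over all autosomal genes. ND-ASHI had 26.0, 24.5 and 20.5 CPM after mof dsRNA and 32.2, 28.6 and 31.3 after GFP dsRNA (-0.37 ± 0.09, adjusted p = 0.0168). UQCR-14 had 53.3, 52.9 and 52.8 CPM after mof dsRNA and 65.1, 61.4 and 65.7 after GFP dsRNA (-0.27 ± 0.05, adjusted p = 0.00182). In these 2 genes all mof libraries lay below all GFP libraries. ND-24 (-0.32 ± 0.09), ND-20 (-0.29 ± 0.06), ND-18 (-0.24 ± 0.06) and COX6B (-0.19 ± 0.06) also fell, with adjusted p at most 0.0468. The X members without a call were ND-B18 (-0.15 ± 0.08), ND-B16.6 (-0.15 ± 0.05), ND-B14.5A (0.04 ± 0.08) and ND-75 (0.09 ± 0.07), of which all but ND-B18 had fallen in St15 males.

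ATPsyndelta went against the other X members in S2 cells. It had 74.3, 72.2 and 69.3 CPM after mof dsRNA and 52.4, 50.3 and 51.4 after GFP dsRNA (0.49 ± 0.05, adjusted p = 0.000107), the largest change of any member there. Its call held under all 11 alternatives run. Of the ATP synthase genes 7 of 13 rose in all and 0 fell. Beside ATPsyndelta these were the stator subunits ATPsynB (146, 139 and 132 CPM after mof dsRNA and 116, 115.2 and 113 after GFP dsRNA, 0.28 ± 0.05) and ATPsynD (0.16 ± 0.05), the catalytic subunit ATPsynbeta (0.22 ± 0.05), the central stalk ATPsyngamma (0.22 ± 0.07), the ring subunit ATPsynC (0.14 ± 0.04) and ATPsynE (0.17 ± 0.06). Other rises were UQCR-6.4 (0.30 ± 0.07), COX8 (0.26 ± 0.07), ND-B14.5B (0.21 ± 0.07), UQCR-C1 (0.20 ± 0.06), ND-23 (0.19 ± 0.06), ND-51 (0.18 ± 0.04), COX7C (0.16 ± 0.05) and COX5A (0.16 ± 0.04). Adjusted p of the rises was at most 0.0495 in edgeR's test.

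The S2 counts depend on single libraries. The 21 calls were 6 without mof library 2 or GFP library 3 and 11 without mof library 1, against 15 to 20 without any of the other 3. Scaling on autosomal genes gave 8 members up and 8 down in place of 15 and 6. On the X, 1 member rose and 2 fell without mof library 2, GFP library 1 or GFP library 3, and 1 rose and 3 fell without mof library 3. The falls of ND-20 and UQCR-14 held under all 11 alternatives, and those of ND-24, ND-18, ND-ASHI and COX6B did not. Fat body and hemocyte markers summed to 11556 to 12099 CPM in mof-treated and 8179 to 11140.5 CPM in GFP-treated cells, with Hml and srp passing of 6, while Tm1 of 5 muscle, elav of 4 neuronal and Gli and moody of 2 glial markers fell, and their part was not tested.

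**Figure D4:**
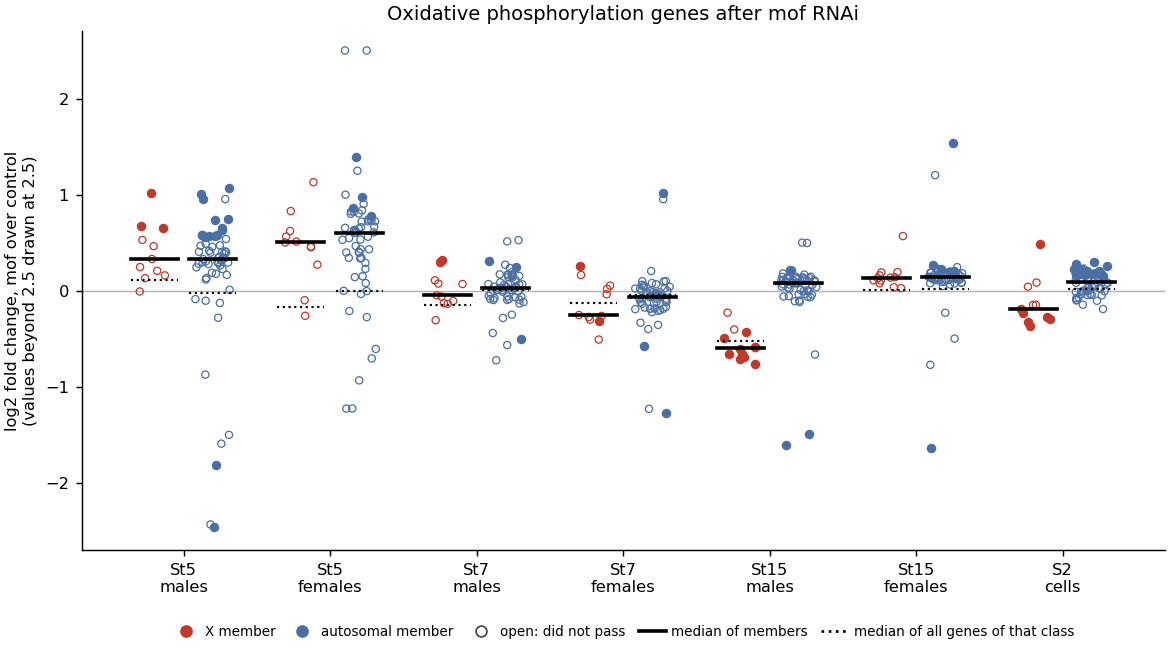
Log2 fold change of each tested member, mof over control, in the 7 comparisons, X members left of autosomal members, filled where the gene passed, with the median of the members (solid) and of all genes of that chromosome class (dotted), and with values beyond the axis limit drawn at that limit. In St15 males all 12 X members lie below 0 with a median of -0.60, while the autosomal median is 0.08.

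At gastrulation few members changed after mof RNAi. In St7 males 2 of 11 X members rose and 0 fell, and 2 of 56 autosomal members rose and 1 fell, where 25.2% of all genes, 23.1% of X genes and 25.6% of autosomal genes passed. In St7 females 1 X member rose and 1 fell, and 1 autosomal member rose and 2 fell, where 27.8% of all genes, 28.6% of X genes and 27.8% of autosomal genes passed. The female split of 2 up and 3 down was 3 and 2 with RLE scaling and 4 and 2 with scaling on autosomal genes. The members' shares of 5 of 67 in each sex were below those backgrounds. Medians in males were -0.05 over X members and 0.03 over autosomal members, beside -0.15 and 0.00 over all X and all autosomal genes, and in females -0.25 and -0.06, beside -0.12 and -0.04. No member's mof effect differed between the sexes at St7 in edgeR's test (0.00% of all genes passed) or with DESeq2, and 1 had an unadjusted p under 0.05.

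COX6B rose in both sexes at St7, the reverse of St15 males. It had 293 to 365 (median 306) CPM in mof males and 234 to 316 (median 294) in control males (0.30 ± 0.08, adjusted p = 0.00945). The highest value, in mof male 3, stood apart from its group. Fold changes use scaled library totals, with factors of 0.929 to 1.024 in mof males and 1.021 to 1.076 in control males. The male fold change of COX6B thus exceeds that of its CPM medians. In females COX6B had 332, 301, 314 and 339 CPM in mof embryos and 251 to 306 (median 290.1) in controls (0.26 ± 0.09, adjusted p = 0.0434). Libraries of the groups overlapped in each sex, and the call in females was lost under 7 of 15 alternatives. ND-B16.6 rose in males, with 127 to 202 (median 157) CPM in mof males and 119 to 151 (median 141) in control males (0.32 ± 0.09, adjusted p = 0.0137), and the autosomal COX7B (0.31 ± 0.10) and UQCR-11 (0.25 ± 0.08) rose beside it (adjusted p at most 0.0272).

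SdhA, the flavoprotein that oxidises succinate in complex II, fell in both sexes. It had 57.7 to 109 (median 79.9) CPM in mof males and 99.4 to 146 (median 131) in control males (-0.50 ± 0.12, adjusted p = 0.00480). In females it had 63.9, 79.3, 63.3 and 61.6 CPM in mof embryos and 97.7 to 115.1 (median 106) in controls (-0.58 ± 0.14, adjusted p = 0.00447), and there the groups did not overlap. ND-24 fell in females (-0.31 ± 0.10, adjusted p = 0.0263), a call lost under 10 of 15 alternatives, both other scalings among them. Its value in males was -0.14 ± 0.09 (adjusted p = 0.270). The paralogs COX7AL (-1.27 ± 0.37) and SdhAL (1.02 ± 0.37) passed in females at levels of 0.771 to 5.92 and 0.686 to 2.53 CPM, and SdhAL lost its call in 10 of 15 alternatives. The male count of 5 was 3 without mof male 2 or 3 or control male 5 and 8 without mof male 4, and the female count of 5 was 2 without mof female 1 or control female 2 and 3 without mof female 3 or control female 1 or 4.

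Genes on the marker lists moved with mof RNAi at St7 too, though their RNA was not traced to a cell type in these embryos. Of 4 fat body and hemocyte markers Hml fell in males (-4.46 ± 0.63) and females (-3.39 ± 0.76), and of 3 glial markers repo fell in males (-1.24 ± 0.26) and females (-1.59 ± 0.32). Kr rose in males (0.36 ± 0.11) and females (0.53 ± 0.12) and hb in females (0.71 ± 0.21), of 8 segmentation markers, and Syx1A, of 4 neuronal markers, rose in both sexes. Of 6 maternal markers gcl rose and plu fell in females, where the muscle marker sls and the midgut marker GATAe also rose. In males twe, of 2 genes on the testis list, fell. Segmentation markers summed to 792 to 1402 CPM in mof males and 795 to 1376 in control males, and to 797 to 1149 CPM in mof females and 1023 to 1599 in control females. Fat body and hemocyte markers summed to 165 to 262 CPM in mof males and 130.4 to 304 in control males, and to 178 to 253 CPM in mof females and 219 to 291 in control females. Both sums overlapped between groups in each sex, and the markers' part in the members' changes was not tested.

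ND-75 varied widely among single St7 embryos of one group. It had 50.5 to 112 (median 98.4) CPM in mof males and 20.2 to 208 (median 126) in control males, and 74.4, 129.8, 146 and 71.7 in mof females and 104 to 197 (median 168) in control females. UQCR-C2, the autosomal core subunit of complex III, had its lowest control male value (42.8 CPM) and its lowest mof male value (70.5 CPM) in the libraries that were also lowest for ND-75 (20.2 and 50.5 CPM). The fold change of ND-75 was -0.31 ± 0.33, adjusted p = 0.528 in males and -0.51 ± 0.38, adjusted p = 0.354 in females. A change in males as large as that at St15 lay within 1 standard error of this estimate.

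At the blastoderm stage the median fold change of the members, on scaled library totals, was positive on the X and on autosomes. In St5 males 3 of 11 X members rose and 0 fell, and 13 of 58 autosomal members rose and 2 fell, where 13.8% of all genes, 14.1% of X genes and 13.8% of autosomal genes passed. In this contrast 8.80% of X genes and 6.04% of autosomal genes rose. The medians were 0.33 over X members and 0.33 over autosomal members, beside 0.12 over all X genes and -0.02 over all autosomal genes. Scaling factors of the library totals were at most 0.881 in mof males. They were 0.895 in control male 3 and 1.004 to 1.113 in the rest of the control males. Fold changes of members in St5 males thus lie above those of their CPM, and part of the 0.33 comes from the scaling. The medians of all genes are on the same scale. By complex, 6 of 12 tested members of complex V rose, 7 of 33 of complex I, 2 of 6 of complex III, 1 of 11 of complex IV and 0 of 7 of complex II. Without mof males 1 and 2, which hold almost no Y-linked counts, 5 members rose and 0 fell. Those 5 were ND-AGGG, ND-B16.6, COX4, ATPsyngamma and UQCR-11. With control male 3 left out too, 13 rose and 2 fell. Leaving out single libraries gave 7 called without control male 2, 34 without control male 3, and 12 without control male 4, mof male 2 or mof male 3, beside 18 with all.

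ND-AGGG, an accessory subunit of complex I, had 72.6, 68.8, 82.2 and 72.6 CPM in mof males and 39.4, 38.9, 49.8 and 35.9 in control males (1.07 ± 0.19, adjusted p = 0.00578). ND-B16.6 had 215, 124, 173 and 167 CPM in mof males and 110.5, 103, 92.2 and 87.9 in control males (1.02 ± 0.18, adjusted p = 0.00501). COX4 had 619, 574, 559 and 541 CPM in mof males and 478, 431, 358 and 340.3 in control males (0.74 ± 0.13, adjusted p = 0.00604). For these 3 genes all mof males, mof males 3 and 4 included, lay above all control males. UQCR-6.4 (1.00 ± 0.26), ATPsynbeta (0.95 ± 0.23) and ATPsyngamma (0.75 ± 0.12) also rose, and ATPsynbeta had 1504, 1233, 1227 and 1280.3 CPM in mof males, against 929, 953, 349 and 1034 in control males. The other X members that rose were ND-24 (0.65 ± 0.17) and ND-B14.5A (0.67 ± 0.20). ND-23, ATPsynB, ATPsynC, ATPsynF, UQCR-11, ATPsynD, ND-B22 and ND-B17.2 rose by 0.56 to 0.65, and the largest adjusted p of the rises was 0.0436 in edgeR's test.

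The genes that fell in St5 males were paralogs at low level. ND-51L1 had 1.71, 0.627, 1.26 and 0.309 CPM in mof males and 5.18, 7.497, 7.52 and 4.81 in control males (-2.45 ± 0.60, adjusted p = 0.0203), and SdhAL had 1.203, 1.82, 0.812 and 0.871 CPM in mof males and 3.99, 4.10, 7.23 and 3.44 in control males (-1.81 ± 0.49, adjusted p = 0.0316). Both were lower without overlap in mof males. Maternal marker RNA summed to 151 to 284 CPM in mof males and 77.1 to 113 in control males, with gnu, plu, tor and gcl rising among 7 and none of the 7 at 0, and segmentation marker RNA to 1466 to 1598 CPM in mof males and 1144 to 1871 in control males, with 0 of 8 passing in edgeR's test, with DESeq2 or at an unadjusted p under 0.05. Their part in the members' rise was not tested.

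In St5 females, with 2 libraries a group, 4 of 69 members rose and 0 fell, all autosomal, where 4.04% of all genes, 3.94% of X genes and 4.04% of autosomal genes passed. The medians were 0.50 over X members and 0.60 over autosomal members, beside -0.17 over all X genes and 0.00 over all autosomal genes, and 33 members were higher at an unadjusted p under 0.05. ND-AGGG had 65.6 and 73.1 CPM in mof females and 23.3 and 31.4 in control females (1.39 ± 0.27, adjusted p = 0.0164). UQCR-11, the hinge subunit of complex III, had 141 and 151 CPM in mof females and 79.9 and 72.4 in control females (0.98 ± 0.17, adjusted p = 0.0109). ND-B17.2 (0.87 ± 0.22) and COX4 (0.78 ± 0.19) rose as well, and all 4 of these genes also rose in St5 males. The count was 0 without mof female 2 (52 Y-linked counts), control female 1 (40) or control female 2, 2 without mof female 1, and 16 with DESeq2. With a library left out 1 arm holds a lone library, which the fit assumes to vary like the other groups. Segmentation markers summed to 431 to 613 CPM in mof females and 376 to 412 in control females, where Kr and kni rose of 8 tested and the glial Gli and moody fell of 2, and maternal markers to 1376 to 1568 CPM in mof females and 1182 to 1442 in control females. Their part in the result was not tested. No member's mof effect differed between the sexes at St5 in edgeR's test (0.121% of all genes passed), 6 had an unadjusted p under 0.05 and 2 passed with DESeq2.

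Control males and females differed in more members at St5 than at St7 or St15. There 45 of 69 members were higher and 7 lower in males, where 62.0% of all genes, 60.7% of X genes and 62.2% of autosomal genes passed, and the medians, male over female, were 0.56 over X members and 0.83 over autosomal members, beside -0.31 and 0.42 over all X and all autosomal genes. Segmentation markers summed to 1144 to 1871 CPM in control males and 376 to 412 in control females, and maternal markers to 77.1 to 113 CPM in control males and 1182 to 1442 in control females. Age within the stage is not recorded, so it cannot be told apart from sex in these libraries. UQCR-C2 (1.61 ± 0.34), ND-MLRQ (1.205 ± 0.21) and COX8 (1.204 ± 0.23) were higher in males, as were the paralogs ATPsynbetaL, SdhAL, SdhBL, ND-51L1 and COX7AL. SdhA (-1.67 ± 0.19), ND-51 (-1.25 ± 0.28), ATPsyngamma (-0.85 ± 0.14), ND-24 (-0.78 ± 0.20) and ND-ACP (-0.74 ± 0.19) were lower in males, with adjusted p at most 0.0395 over the genes named. ATPsynbetaL had 0.895, 1.77, 5.12 and 0.952 CPM in control males and was listed at 0 in both control females. SdhAL had 3.99, 4.10, 7.23 and 3.44 CPM in control males and 0.138 and 0.0553 in control females. No fold change is given for the 5 paralogs, whose female counts were 0 or low. Without control female 1, which leaves a lone female library with its spread taken from the other groups, 32 members passed, 25 higher and 7 lower in males. SdhBL had 2.94, 1.94, 0.972 and 1.80 CPM in control males and 0.0691 and 0.0553 in control females.

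At St7 the controls differed by sex in 3 members, all on the X, where 6.22% of all genes, 31.4% of X genes and 1.03% of autosomal genes passed. ND-24 was lower in males, with 65.7 to 90.5 (median 81.7) CPM in control males and 90.4 to 113 (median 102) in control females (-0.42 ± 0.09, adjusted p = 0.00279), and ND-B16.6 was lower too (-0.31 ± 0.09, adjusted p = 0.0417). ND-B18 was higher in males, with 86.8 to 136 (median 119) CPM in control males and 69.8 to 95.1 (median 82.9) in control females (0.39 ± 0.11, adjusted p = 0.0401). The call on ND-B16.6 was lost under 16 of 18 alternatives and that on ND-B18 under 11. With 1 library left out the count was 1 or 2, except without control male 2, where it was 3 with none higher, and the split of 1 higher and 2 lower was 1 and 1 with RLE scaling and 0 and 2 with scaling on autosomal genes. X members stood 0.18 below autosomal members in this contrast, and all X genes 0.43 below all autosomal genes.

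Paralogs that were tested but are not described above stayed low and passed in no mof comparison. ND-51L2, beside the NADH-binding ND-51, had 7.75 to 9.18 CPM over the 6 S2 libraries (-0.08 ± 0.09, adjusted p = 0.599). COX7CL had 3.51 to 5.04 CPM there (0.23 ± 0.13, adjusted p = 0.239) and COX5BL 2.05 to 3.22 (-0.04 ± 0.18, adjusted p = 0.888). ATPsynepsilonL stood at 1.38 to 2.67 CPM over all St15 libraries, with -0.11 ± 0.18, adjusted p = 0.684 in males. COX6AL at St15 (0.0526 to 0.755 CPM) and UQCR-6.4L at St5 (0 to 0.532 CPM) were under 1 CPM in every library. Of these 6 paralogs, 3 had levels above 1 CPM in every S2 library. At St7 UQCR-11L was listed at 0 in every library, while in S2 cells it had 13.5 to 16.5 CPM (-0.01 ± 0.08, adjusted p = 0.945).

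Of the 75 members tested in at least 1 table, 35 passed in none of the 7 mof comparisons, 14 rose in at least 2 of them and 8 fell in at least 2. Of all genes, 4.04% (St5 females) to 34.3% (St15 males) passed per comparison. No such tally over the 7 comparisons was made for all genes, so these counts are a description only. These comparisons share no libraries, but those of one stage share the estimate of the spread. ND-18, ND-20, ND-ASHI and UQCR-14 fell in St15 males and in S2 cells and passed in no other of the 7. ND-24 fell in St15 males, S2 cells and St7 females and rose in St5 males. COX6B fell in St15 males and S2 cells and rose at St7 in both sexes, while ATPsyndelta fell in St15 males and rose in S2 cells. ATPsynD, UQCR-6.4 and UQCR-11 each rose in 3, with no fall. Without St5 mof males 1 and 2 the St5 male rises of ATPsynD, UQCR-6.4 and ND-24 did not pass. The St15 female rises of ATPsynD and UQCR-6.4 were lost without most single female libraries in turn. Of the 21 calls in S2 cells, 5 held under all 11 alternatives, and the falls of ND-18, ND-24, ND-ASHI and COX6B were not among them. The St7 female calls of COX6B and ND-24 were each lost under several alternatives. Overlapping genes leave the St15 value of ATPsyndelta and the contrast of COX6B between stages uncertain. These are counts of calls in comparisons of unequal size and depth, and no difference between stages was tested.

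**Figure D5:**
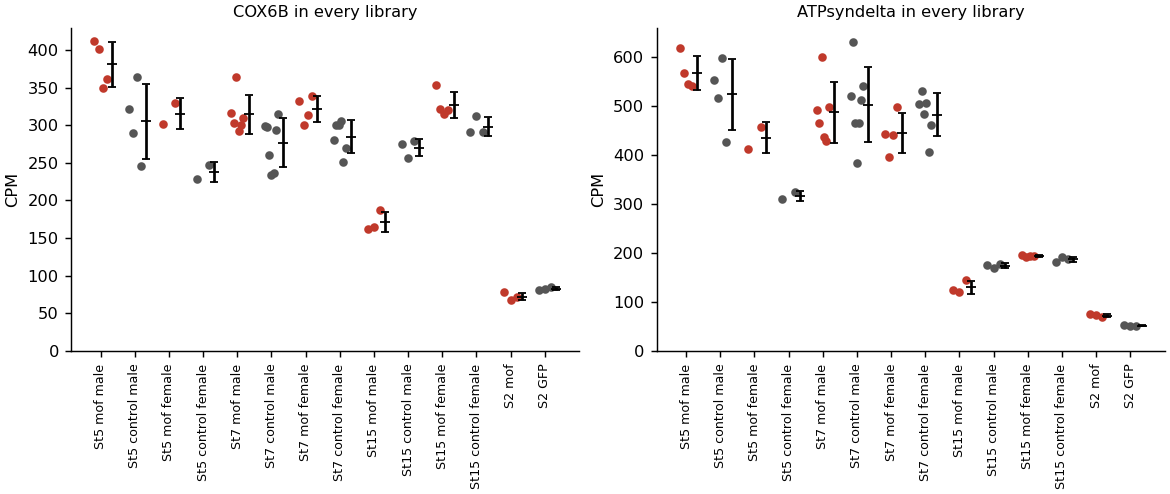
CPM of COX6B (left) and ATPsyndelta (right) in every library, 1 point each (linear axis from 0) with mean and SD, by group with mof left of its control; tables were counted separately. COX6B in St15 mof males (162 to 187 CPM) lies below control males (257 to 279 CPM), and ATPsyndelta after mof dsRNA (69.3 to 74.3 CPM) above GFP dsRNA (50.3 to 52.4 CPM).

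Genes of the same pathway outside the rule were counted in the same fits. Of all genes, 34.3% passed in St15 males, 26.0% in St15 females and 23.4% in S2 cells. At the earlier stages 25.2% passed in St7 males, 27.8% in St7 females, 13.8% in St5 males and 4.04% in St5 females. Of the subunits under other symbols, 0 of 8 tested rose and 1 fell in St15 males, the X gene sun, the epsilon subunit of the ATP synthase (-0.60 ± 0.09, adjusted p = 0.000163), and in S2 cells 4 of 7 rose and 0 fell, Cyt-c1 (0.18 ± 0.05), RFeSP (0.19 ± 0.05), levy (0.26 ± 0.08) and blw (0.25 ± 0.07). None of the 13 mitochondrially encoded genes passed in St15 males, St15 females or, of 10 tested, S2 cells, with medians of -0.43, -0.31 and -1.10. At an unadjusted p under 0.05 there was 1 in St15 males and none in the other 2 comparisons, and DESeq2 called none in the 3. At the earlier stages mt:CoII (0.30 ± 0.08), mt:CoIII (0.38 ± 0.08) and mt:Cyt-b (0.29 ± 0.09) rose in St7 males and mt:ND5 (0.86 ± 0.19) in St5 females, of 13 tested in each, with adjusted p at most 0.0294 in edgeR's test. In St7 females 0 of 13 passed, with 4 at an unadjusted p under 0.05 and 2 with DESeq2, and in St5 males 0 passed by any of the 3. Their summed level was 756 to 3559.6 CPM in mof-treated and 4014 to 5143 CPM in GFP-treated S2 cells, and 4911 to 13866 in St15 mof males and 12074 to 13933 in control males. Of 11 tricarboxylic acid cycle and pyruvate entry genes tested, 4 fell and 1 rose in St15 males, where 64.8% of X genes and 28.3% of autosomal genes passed. The X genes Idh3a (-0.76 ± 0.07), kdn (-0.53 ± 0.05) and Pdha (-0.43 ± 0.08) and the autosomal Mdh2 (-0.39 ± 0.09) fell, and ScsbetaG (0.22 ± 0.06) rose, with adjusted p at most 0.00850. Among 10 assembly and carrier genes, sesB, the X-linked ADP/ATP carrier (-0.46 ± 0.05), Cox17 on the X (-0.42 ± 0.12) and the autosomal CIA30 (-1.15 ± 0.13) fell in St15 males and 0 rose. sesB had the opposite sign earlier, and rose in St5 males (0.95 ± 0.11), St5 females (0.91 ± 0.16), St7 males (0.39 ± 0.07) and St7 females (0.37 ± 0.08). Cox17 fell in St7 males (-2.03 ± 0.45) and females (-2.41 ± 0.55) as well. Surf1 fell in St7 males (-1.11 ± 0.19) and females (-1.62 ± 0.24), as did CIA30 (-0.75 ± 0.16 and -0.71 ± 0.18). Cox10 (-0.34 ± 0.12) and Cox11 (-0.54 ± 0.13) fell in St7 females only. CIA30 (-1.23 ± 0.35) and Scox (-1.61 ± 0.39) fell in St5 males. In St5 males 5 of 12 tricarboxylic acid cycle and pyruvate entry genes rose and 0 fell, and in St5 females 0 of 12 rose and Idh3a fell (-1.04 ± 0.15). Idh3a rose in St7 females (0.40 ± 0.09), where Idh3g and Pdha fell of 11 tested, and Idh3g alone passed in St7 males (-0.28 ± 0.08). Of 7 regulators tested, PolG1, the mitochondrial DNA polymerase, fell in St15 males (-2.06 ± 0.15) and females (-2.53 ± 0.14). PolG1 also fell in St7 males (-1.34 ± 0.32) and females (-1.67 ± 0.38). The fly homolog of the mammalian PGC-1 coactivators, srl, rose in St15 males (0.88 ± 0.06) and females (0.37 ± 0.06). It rose too in St7 males (0.62 ± 0.16), St7 females (0.66 ± 0.18) and S2 cells (0.20 ± 0.05). Adjusted p of PolG1 and srl was at most 0.0116 in edgeR's test. At St7 the X gene ewg rose in males (0.56 ± 0.15) and females (0.46 ± 0.17), and PolrMT fell in males (-0.98 ± 0.29). Adjusted p of ewg and PolrMT was at most 0.0490 in edgeR's test.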

How the data were processed

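PolyA RNA of single embryos, pooled embryos and S2 cells was sequenced from stranded libraries, per the labels' protocols. The authors deposited raw counts per gene in 4 tables. The submitters' processing notes name build dm 6. The aligner, counter and strand setting were not given in the sources used here. Gene positions and exon lengths are from Ensembl release 115.

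Counts were tested per table with edgeR 4.0.16 (R 4.3.3): filterByExpr, TMM scaling, a robust quasi-likelihood fit with 1 mean per group and no block, and Benjamini-Hochberg adjustment over all genes tested, with a threshold of 0.05. The procedure was tested on simulated data. CPM used the total count of each library, and TPM the union of exons. Stage, sex and treatment came from the labels. Members and lists were chosen with earlier results of these data known. Named were all tested X members, the 5 largest rises and falls per comparison, members that passed in at least 2 of the 7 mof comparisons, tested paralogs and the leading member of each complex. Alternatives were RLE scaling, TMM on autosomal genes, DESeq2 1.42.0, no low count filter, a replicate block and leaving out libraries. Promoter motifs were not analysed here.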

Additional observations from a re-analysis of the deposited data

Results flagged for a closer look

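Single libraries stood apart from the rest of their group in 8 of 92 groups of values tested at a confidence of 0.95, where chance flags about 1 in 20. At St5 the log2 ratio of X to autosomal members was -2.84 in mof male 4, apart from the other 3 mof males. At St7, mof male 3 stood apart in 3 X members, with 134 CPM of ND-20, 50.5 CPM of ND-75 and 365 CPM of COX6B. St7 mof female 2 had the lowest summed level of its group, 11635 CPM over all members, and a log2 ratio of -2.63. St7 control male 7 also had a log2 ratio of -2.63. At St15, COX6B stood at 353 CPM in mof female 1, above the other 3 mof females.

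For 10 X members the mof effect differed between the sexes at St15, by edgeR's test of the difference itself, with males lower. On the log2 scale the difference was -0.85 for ND-20, -0.85 for COX6B, -0.80 for ND-18, -0.79 for ND-24 and -0.78 for ND-ASHI. It was -0.77 for ND-B14.5A, -0.75 for UQCR-14, -0.64 for ND-75, -0.63 for ND-B16.6 and -0.53 for ATPsyndelta.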

How the results depend on the processing

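The falls of 10 X members in St15 males kept direction and call under each of the 11 alternatives run. X less autosomal medians with a library left out were -0.717 to -0.660 in males and -0.709 to -0.648 for the difference. Counts elsewhere moved, and the cause was not tested. Counts of members called with 1 library left out were 7 to 34 in St5 males (18 with all), 0 to 2 in St5 females (4), 3 to 8 in St7 males (5), 2 to 5 in St7 females (5), 2 to 6 in St15 females (6) and 6 to 20 in S2 cells (21). They were 32 to 52 for St5 controls (52), 1 to 3 for St7 controls (3) and 0 to 1 for the St5 difference between sexes (0). X less autosomal medians then were -0.019 to 0.070 in St5 males, -0.122 to -0.042 in St5 females, -0.279 to -0.198 for St5 controls and -0.047 to 0.173 for the St5 difference.

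Without mof males 1 and 2 the count was 5 in St5 males and 2 in St5 females. Leaving out control male 3 too, a choice made after seeing the data, gave 26 in St5 females, 1 for the St5 difference, and X less autosomal medians of -0.240 for St5 controls and 0.123 for the difference. DESeq2 called 16 in St5 females, 15 in St15 females, 1 for St15 controls and 2 for the St5 difference. RLE scaling called 13 in St15 females. It moved the median of all genes between St5 controls to 0.45, against 0.32 with TMM and 0.24 with TMM on autosomal genes. Without the low count filter 3 were called in St7 females, 2 in St15 females and 1 for St7 controls, and the X less autosomal median of St5 females was -0.028.

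Libraries with the same replicate number correlated at -0.298 to 0.231 in their deviations from group means, so the numbers were not taken to pair libraries. With the replicate block 2 were called in St5 females, 3 in St15 females and 1 for St7 controls, and the X less autosomal median of St5 controls was -0.163. With the numbers of the St5 mof females crossed, a choice made after seeing the data, the block called 3 in St5 females and gave -0.170 for St5 controls.

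Depth at St7, the lowest here, and 2 libraries a group in St5 females limit what those comparisons can show.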
